A study of Mus musculus with 3 samples.

Results

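The 2 mature arms of the mouse microRNA (miRNA) mir-21a, mmu-miR-21a-5p and mmu-miR-21a-3p, were followed through exosomes released by cultured bone-marrow stromal cells. Every probe on the array designed for either name was taken, so they make up 2 of the 1881 mouse miRNAs that the array measures. Exosomes are small vesicles that cells shed into their medium, and their RNA was hybridized to 1 one-colour mouse miRNA array for each of 3 culture conditions. The series is titled for the repair of heart muscle by hypoxia-treated mesenchymal stem cells (MSCs), and the comparisons of cargo between conditions follow from its design.

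All 3 groups came from MSCs of male wild type C57BL/6 mice aged 4 to 6 weeks, used at passages 3 to 6. Serum (fetal bovine) was part of the growth medium, and whether serum vesicles were removed is not stated. H+G-Exo came from MSCs in hypoxia with GW4869, an inhibitor of the neutral sphingomyelinase that helps vesicles bud. H-Exo came from MSCs in hypoxia and N-Exo from MSCs in normoxia. Each exposure lasted 24 h, and medium was collected from 10 dishes and ultracentrifuged. The design text names 3 samples of each kind, but each group analysed here is 1 array, and whether it held pooled RNA is not stated. The protocols name kits for cRNA amplification and cDNA synthesis, which are not the usual labelling for a miRNA array.

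A miRNA hairpin is cut into a pair of arms, of which the guide is loaded into Argonaute and pairs with target messages through its seed, bases 2 to 8, while the passenger arm is mostly degraded. miR-21a-5p is the guide arm of mir-21a and miR-21a-3p the passenger. miR-21 is abundant in fibroblasts and stromal cells, is induced through STAT3, AP-1 and NF-kB, and represses Pdcd4 and Spry family genes. In the heart it is known both for roles in fibroblasts and for protecting cardiomyocytes when delivered in vesicles. In the RefSeq gene table Mir21a lies inside the interval of Vmp1, a protein-coding gene for a membrane protein of autophagy.

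The mature sequences below (RefSeq, GRCm38.p6) are shown because the seed decides which targets an arm can pair with, and because near copies could in principle share signal with miR-21a-5p. The seed is in capitals.
miR-21a-5p: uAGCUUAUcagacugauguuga
miR-21a-3p: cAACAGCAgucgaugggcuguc
miR-21b: uAGUUUAUcagacugauauuucc
miR-21c: uAGCUUAUcagacugguacaa
Among the 1608 miRNAs of the array with a RefSeq sequence, the seed of miR-21a-5p was shared with 1 other miRNA, miR-21c, and the seed of miR-21a-3p with 0. Counted from 1 at the 5′ end of miR-21a-5p, miR-21c kept the first 15 bases and had A16G, G18A, U19C, U20A and G21A. miR-21b differed inside the seed, by C4U, and further along by G18A, G21U and A22C. The seed of miR-590-5p, another relative, was not compared.

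The hairpin shows where each arm sits, with the arms in capitals and the 5p arm first.
mir-21a hairpin: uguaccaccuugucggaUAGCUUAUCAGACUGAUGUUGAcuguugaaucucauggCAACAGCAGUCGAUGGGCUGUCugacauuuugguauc
Its 92 bases lie on the minus strand at chr11:86584067-86584158 (GRCm38.p6). The 5p arm is at chr11:86584120-86584141 and the 3p arm at chr11:86584082-86584103, each 22 bases long.

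The array reads each arm through DNA probes that pair with its 3′ part, so the seed is covered only in part. The brightest probe of each arm is shown with the corresponding probes of the near copies, to let the bases that could cross-pair be compared.
miR-21a-5p probe: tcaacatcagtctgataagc
miR-21a-3p probe: gacagcccatcgact
miR-21b probe: ggaaatatcagtctgataaac
miR-21c probe: ttgtaccagtctgataagc
The 20-base probe of miR-21a-5p pairs with bases 3 to 22, and a second probe of 19 bases pairs with bases 4 to 22. Each was printed in 15 spots. miR-21a-3p had 4 probes of 15, 14, 13 and 12 bases, which pair with bases 8 to 22 at most and were printed in 7 or 8 spots each. The array files' own positions for the probes, in the mm9 build, run in the reverse order of the arms in RefSeq and are not given here. No exon, intron or UTR is annotated in those files. The guide-arm probe holds 40% G and C and the passenger-arm probe 60%, against a median of 53.3% over all miRNAs. Signal of different probes depends on the probe as well as on the RNA, so ranks and shares below are of signal, not of molecules.

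Each array held 58594 spots, 4415 miRNA probes and no saturated miRNA spot, and detection meant that over 50% of the spots of a miRNA's brightest probe were well above background. H+G-Exo had 675 detected miRNAs, H-Exo 586 and N-Exo 685. Signals were scaled, that is, divided by each array's 75th percentile over probes detected on all 3 arrays, and that percentile was 468.9 in H+G-Exo, 235.0 in H-Exo and 417.3 in N-Exo. The summed unscaled signal was 926233 in H+G-Exo, 556075 in H-Exo and 925082 in N-Exo. Of the mesenchymal marker miRNAs 6 of 6 were detected in H+G-Exo, 5 of 6 in H-Exo and 6 of 6 in N-Exo, while 0 of 2 endothelial and 0 of 5 epithelial markers were detected on any array. Blood cell markers were detected for 3, 2 and 2 of 7 in H+G-Exo, H-Exo and N-Exo, muscle and heart markers for 3, 1 and 3 of 6, liver and serum markers for 0, 0 and 1 of 2, and neuron markers for 0, 0 and 1 of 3. With 1 array per group there is no replicate check and no p-value, each ± is the SD over spots of 1 probe on 1 array, and the number of arrays limits every comparison.

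miR-21a-5p was among the brightest miRNAs of these exosomes and was lower with hypoxia, and lower still with hypoxia and GW4869. On its 20-base probe the scaled signal was 29.7 ± 0.657 in H+G-Exo, 81.0 ± 4.11 in H-Exo and 190.4 ± 15.4 in N-Exo. Before scaling the same probe read 13949 ± 308 fluorescence units in H+G-Exo, 19040 ± 966 in H-Exo and 79440 ± 6424 in N-Exo. Both scales give the same order of the 3 arrays. With flagged outlier spots left out, the spots of the 20-base probe in H+G-Exo ran from 13214 through a median of 14003 to 14456 units. In H-Exo they ran from 17090 through 19264 to 20083, and in N-Exo from 66987 through 80928 to 86571. The spots used of the 3 arrays did not overlap, but they are repeats within 1 array each. With the outlier spots, the unscaled ranges of H+G-Exo and H-Exo did overlap, at 14793 units in H+G-Exo and 14769 in H-Exo. How many other miRNAs had spots without overlap was not counted.

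The 19-base probe, which leaves base 3 unpaired, was dimmer and gave the same order. It read 2183 ± 58.7 units in H+G-Exo, 3097 ± 207 in H-Exo and 15609 ± 506 in N-Exo. Its spots used ran from 2055 to 2267 in H+G-Exo, from 2703 to 3312 in H-Exo and from 14494 to 16208 in N-Exo, again without overlap. The same limits hold, as these are repeats within 1 array each and other miRNAs were not counted. The longer probe was 6.39 times as bright as the shorter in H+G-Exo, 6.15 times in H-Exo and 5.09 times in N-Exo, so the probes agreed in direction and differed in size. The ratio in H-Exo was 1.21 times that in N-Exo, against a median of 1.01 over 551 probe pairs of 458 miRNAs, and 96.4% of the pairs had a quotient no larger.

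**Figure D1:**
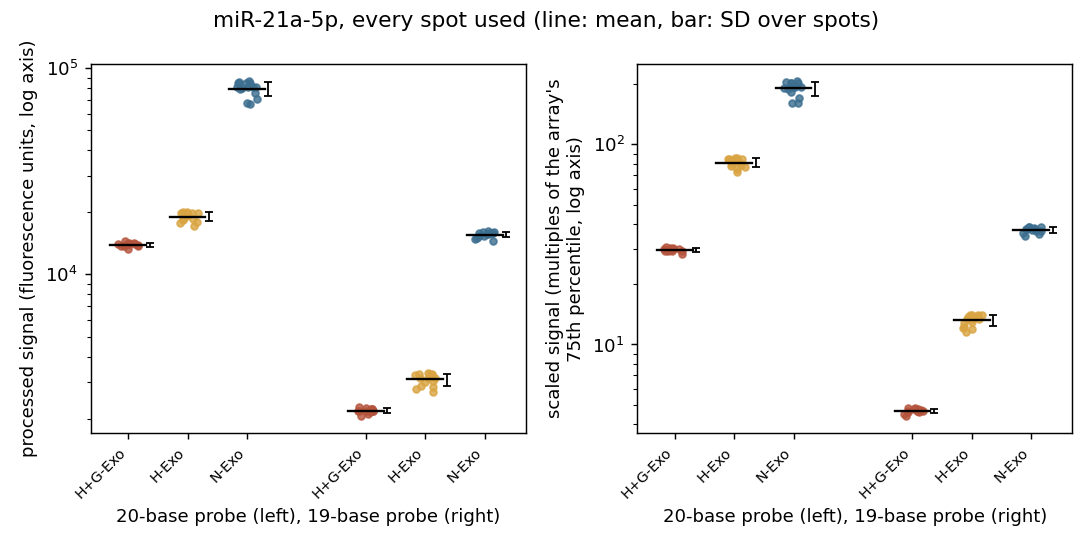
Every spot used of both miR-21a-5p probes, as processed signal in fluorescence units (left panel) and as scaled signal (right panel), both on log axes, for the H+G-Exo, H-Exo and N-Exo arrays; lines are means and bars SDs over spots. The 20-base probe averaged 13949 units in H+G-Exo, 19040 in H-Exo and 79440 in N-Exo. The spots used do not overlap between arrays on either probe, and how many other miRNAs show this was not counted.

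By signal, miR-21a-5p ranked 13 of 675 detected miRNAs in H+G-Exo, 6 of 586 in H-Exo and 2 of 685 in N-Exo. It held 1.51% of the summed miRNA signal in H+G-Exo, 3.42% in H-Exo and 8.59% in N-Exo. By the scanner software's totals per miRNA it ranked 17 in H+G-Exo, 12 in H-Exo and 3 in N-Exo, with 0.968%, 2.11% and 5.91% of the signal. Its rank neighbours in H+G-Exo and H-Exo differed from it by more than the spot SDs. In H+G-Exo miR-3960 stood above it at 38.8 ± 1.40 and miR-211-3p below it at 27.7 ± 0.604. In H-Exo miR-6769b-5p stood above at 136.5 ± 1.95 and miR-8110 below at 70.6 ± 0.735. In N-Exo the gap to the miRNA above, miR-1224-5p at 210.3 ± 7.74, was smaller than both SDs together. The miRNA below it there, miR-3963 at 165.5 ± 5.89, had its mean inside the range of the miR-21a-5p spots, 160.5 to 207.4.

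Many of the miRNAs that ranked above it carry numbers of 3000 or more, late entries of the miRNA register that are in part GC-rich. They held 56.8% of the signal in H+G-Exo, 56.0% in H-Exo and 47.3% in N-Exo. Among miRNAs numbered below 3000, miR-21a-5p ranked 3 of 319 in H+G-Exo, 2 of 288 in H-Exo and 2 of 350 in N-Exo, with 3.49%, 7.78% and 16.3% of their summed signal. Its share, a ratio within each array that no scaling by a single number changes, was thus lower in both hypoxic arrays on either count. A share also moves with the signal of other bright miRNAs. miR-1224-5p alone held 21.4% of the summed miRNA signal in H+G-Exo, 17.9% in H-Exo and 9.49% in N-Exo.

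In H-Exo against N-Exo, the hypoxia comparison, miR-21a-5p was 2.35-fold lower, a log2 difference of -1.23 ± 0.04 (SE over spots). A call required detection on both arrays, a difference of at least 2-fold and one larger than 2 SE over spots. By that rule 1 of the 2 arms, the guide, was lower, and the other could not be measured on both arrays. Of all 582 miRNAs measured on both arrays 10.7% were called lower and 4.3% higher. The median miRNA stood at 0.34, so miR-21a-5p was 1.58 below it on the log2 scale. Of the 582, 42 had a lower difference.

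That size depended on the scaling, while the direction did not under the 15 alternatives run. Without scaling the difference was 4.17-fold, with the spike-in controls added at labelling 3.52-fold and with those added at hybridization 4.21-fold. The calls of all miRNAs also changed, from 25 higher and 62 lower to 1 higher and 134 lower without scaling. Relative to the median miRNA, miR-21a-5p lay between -1.71 and -1.33 on the log2 scale over the 14 alternatives that cover all miRNAs, which leave out the shorter probe alone. By construction, scalings by a single number per array hardly move this value.

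In H+G-Exo against H-Exo, the GW4869 comparison, miR-21a-5p was 2.72-fold lower, a log2 difference of -1.45 ± 0.02 (SE over spots). Of 566 miRNAs measured on both arrays 26.1% were called lower and 6.18% higher, and their median was -0.42. miR-21a-5p lay 1.03 below that median, and 71 of the 566 had a lower difference. The call was lost where the arrays were not scaled to their own miRNA signal. Without scaling it was 1.36-fold lower, with the labelling spike-ins 1.50-fold and with the hybridization spike-ins 1.52-fold. The calls of all miRNAs turned from 35 higher and 148 lower to 185 higher and 7 lower without scaling. Over the same 14 alternatives miR-21a-5p lay between -1.11 and -0.93 from the median miRNA on the log2 scale. Scalings by a single number per array hardly change this value by construction. The percentage of miRNAs with a difference no higher than that of miR-21a-5p ran from 6.35 to 21.0.

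In H+G-Exo against N-Exo, the combined comparison of both treatments, miR-21a-5p was 6.40-fold lower, a log2 difference of -2.68 ± 0.03 (SE over spots). Of 606 miRNAs 26.1% were called lower and 18.3% higher, their median was -0.05, and 24 had a lower difference than miR-21a-5p. The fold ran from 5.10 to 8.03 over the 15 alternatives, and the median probe detected on all arrays as the scale turned the calls of all miRNAs from 111 higher and 158 lower to 163 higher and 123 lower. The 3 comparisons share their arrays, so they are not independent of each other. In a vesicle sample, fewer vesicles that carry a miRNA and less of it in each vesicle cannot be told apart.

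**Figure D2:**
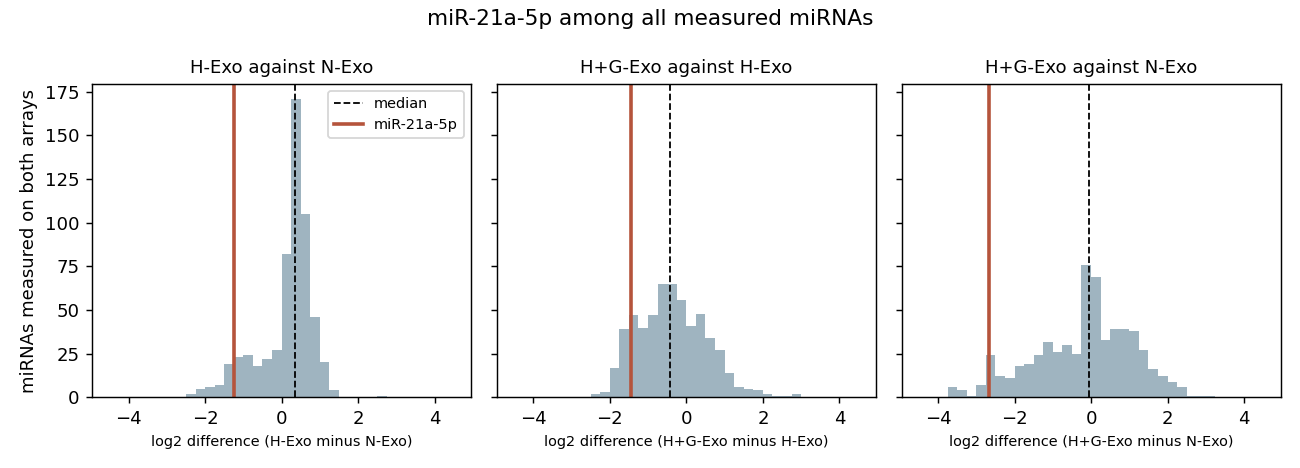
Histograms of the log2 difference in scaled signal for all miRNAs measured on both arrays, in the hypoxia (582), GW4869 (566) and combined (606) comparisons; the y axis counts miRNAs, the dashed line is their median and the solid line miR-21a-5p. miR-21a-5p lies at -1.23, -1.45 and -2.68, left of the median in each panel.

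Base composition moved with the differences. Over miRNAs whose brightest probe holds 35 to 45% G and C, as that of miR-21a-5p does, the median difference was -0.86 in the hypoxia comparison (71 miRNAs), -1.23 in the GW4869 comparison (64) and -2.02 in the combined comparison (68). Among them 21, 21 and 12 miRNAs had a lower difference than miR-21a-5p, which lay 0.38, 0.22 and 0.66 below these medians. miR-21a-5p was therefore closer to miRNAs of like composition than to all miRNAs, and the part of base composition in its differences was not tested.

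**Figure D3:**
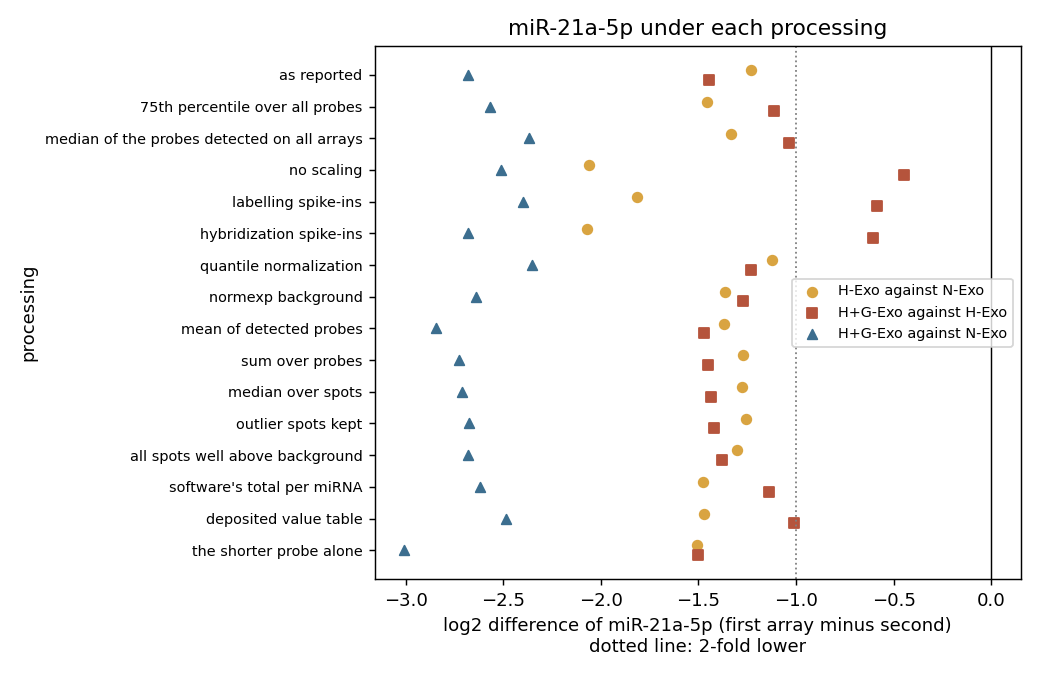
Log2 difference of miR-21a-5p (x axis) as reported and under each of 15 other ways of processing (rows), for the 3 comparisons between arrays; the dotted line marks 2-fold lower. All points lie below 0, and the points of H+G-Exo against H-Exo pass the dotted line towards 0 without scaling and with either kind of spike-in.

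miR-21a-3p, the passenger arm, was at the edge of detection. Its 15-base probe read 11.3 ± 1.88 units in H+G-Exo, 11.6 ± 3.22 in H-Exo and 18.8 ± 3.59 in N-Exo. No spot of 7 was well above background in H+G-Exo or H-Exo, and 4 of 7 were in N-Exo. Individual spots ran from 8.45 through a median of 11.0 to 14.4 units in H+G-Exo, from 7.38 through 12.6 to 15.9 in H-Exo and from 13.8 through 20.3 to 22.8 in N-Exo. N-Exo spots overlapped those of both other arrays in part.

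The shorter probes of miR-21a-3p were dimmer still. The 14-base probe read 7.20 ± 2.86 units in H+G-Exo, 7.05 ± 1.46 in H-Exo and 10.5 ± 4.58 in N-Exo, and the 13-base and 12-base probes averaged between -2.77 and 0.531 on all arrays. None of their spots was well above background. In N-Exo miR-21a-3p was thus the dimmest detected miRNA, rank 685 of 685, with 0.00204% of the summed signal.

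Scaled, the 15-base probe stood at 0.0241 in H+G-Exo, 0.0493 in H-Exo and 0.0451 in N-Exo. The N-Exo value lay under 0.0653, the floor set for scaled signals, which is the lowest detected signal of H-Exo. No fold is therefore given for miR-21a-3p against N-Exo. The N-Exo spots themselves varied by 19.1% (coefficient of variation). miR-21a-3p was not detected on either hypoxic array, so no fold was taken between them. The scaled order of H-Exo and N-Exo turned round without scaling, so no direction is given for miR-21a-3p there.

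The scanner software's own totals for miR-21a-3p need care. It lists 23.0 for miR-21a-3p in N-Exo, although its own figure for the 15-base probe is 2.46, and lists the fixed low value of 0.1 in H+G-Exo and H-Exo. The authors' deposited value table, in log2, holds -1.78 for miR-21a-3p in N-Exo and the lowest value of the column in H+G-Exo and H-Exo. For miR-21a-5p it holds 12.03 in H+G-Exo, 13.04 in H-Exo and 14.52 in N-Exo, the same order as the scanner signals. That table gives each array 1 value, with no SD.

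A detected guide beside a passenger arm that was not detected was common on these arrays. Of 723 hairpins with both arms on the array, only the 5p arm was detected for 220 in H+G-Exo, 201 in H-Exo and 209 in N-Exo. Only the 3p arm was detected for 122, 107 and 121, and neither for 306, 357 and 308. Both arms were detected for 75, 58 and 85 of the 723. mir-21a was among the hairpins with only the 5p arm in H+G-Exo and H-Exo, and among those with both in N-Exo through the 4 spots above. Of hairpins with an arm among the 50 brightest miRNAs numbered below 3000, the other arm was not detected for 19 of 28 in H+G-Exo, 22 of 31 in H-Exo and 21 of 32 in N-Exo.

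The near copies gave no signal well above background. miR-21b on its 21-base probe read 1.35 ± 1.93 units in H+G-Exo, 1.26 ± 2.34 in H-Exo and 3.75 ± 2.13 in N-Exo. miR-21c on its 19-base probe read -0.826 ± 2.50 units in H+G-Exo, 2.11 ± 2.80 in H-Exo and 7.23 ± 3.70 in N-Exo. No spot of either was well above background, nor any of miR-590-5p. Both printed near-copy probes can pair with a run of 13 bases of miR-21a-5p, which read 79440 units on its own probe in N-Exo, while the near-copy probes averaged at most 7.23 units on any array.

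**Figure D4:**
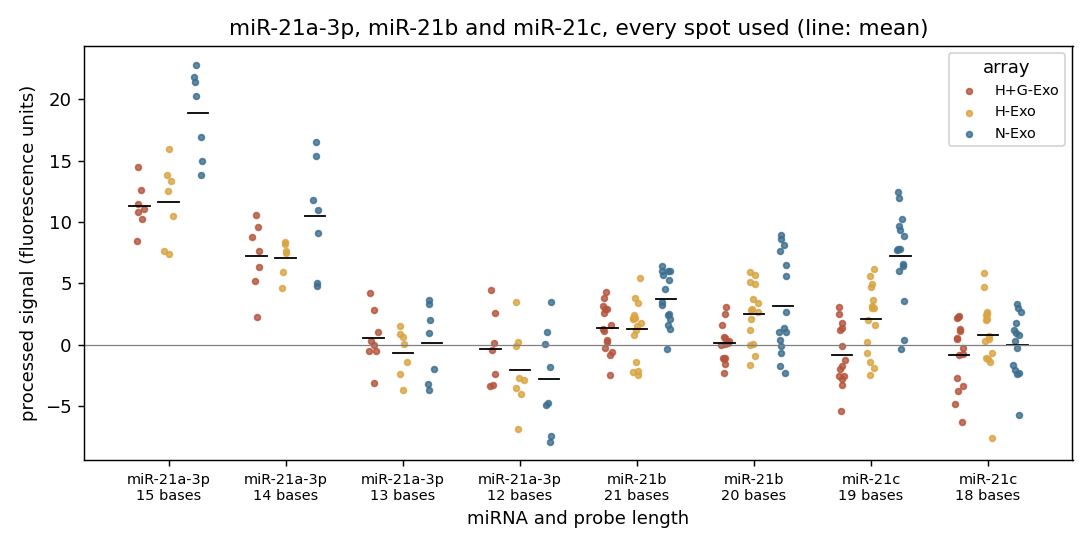
Processed signal in fluorescence units (linear y axis) of every spot used of the 4 miR-21a-3p probes and of the miR-21b and miR-21c probes, by array; lines are means. The 15-base probe of miR-21a-3p averaged 11.3 units in H+G-Exo, 11.6 in H-Exo and 18.8 in N-Exo, and the other probes lie nearer 0.

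Other miRNAs that stromal cells hold in abundance differed in the same direction. Of 26 such miRNAs measured in the hypoxia comparison, 18 were called lower and 0 higher, with a median of -1.20, against 10.7% of all miRNAs called lower. For GW4869, 17 of 26 were lower and 0 higher, with a median of -1.22, though the lower calls ran from 1 to 18 over the alternatives. All 27 measured in the combined comparison were lower, with a median of -2.27. Over all miRNAs 26.1% were called lower in each of these comparisons. For all miRNAs with 35 to 45% G and C, the hypoxia, GW4869 and combined medians were -0.86, -1.23 and -2.02. The part of base composition in the differences of the stromal list was not tested. The 28 miRNAs of that list together held 3.85% of the signal in H+G-Exo, 7.07% in H-Exo and 16.1% in N-Exo.

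Set beside the members of that list, to which it does not belong, miR-21a-5p was neither the least nor the most changed. In the hypoxia comparison 12 of the 26 had a lower difference, among them miR-99a-5p at -2.20, miR-143-3p of contractile mesenchymal cells at -2.20, and miR-23b-3p and miR-27b-3p of 1 cluster at -2.01 each. In the GW4869 comparison 8 of 26 had, with miR-125a-5p at -2.25 and let-7a-5p at -1.63. In the combined comparison 9 of 27 had, with miR-99a-5p and miR-23b-3p at -3.66 each and miR-26a-5p at -3.62. The 6 mesenchymal markers are all members of that list, so their counts repeat a part of it. Lower calls numbered 4 of 5 in the hypoxia comparison, 3 of 5 for GW4869 (0 to 4 over the alternatives) and 6 of 6 combined. Of all miRNAs 10.7%, 26.1% and 26.1% were called lower. The summed share of the markers was 0.973% in H+G-Exo, 1.81% in H-Exo and 4.21% in N-Exo. The part of the stromal share in the miR-21a-5p difference was not tested. The inflammation, fibrosis, cardiac and hypoxia lists below also share members with the stromal list, so their counts are not independent of it. The part of base composition in the differences of those lists was not tested either.

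miR-210-3p, the best known miRNA induced by hypoxia, had another pattern. Its scaled signal was 6.17 ± 0.243 in H+G-Exo, 13.2 ± 0.443 in H-Exo and 7.51 ± 0.339 in N-Exo. In the hypoxia comparison its log2 difference was 0.82, short of a call. It reached 1.10, a higher call, with quantile normalization, and turned to -0.01 without scaling and -0.02 with the hybridization spike-ins. In the GW4869 comparison miR-210-3p was called lower, at -1.10, and ran from -1.10 to -0.10 over the alternatives. The gap between the log2 differences of miR-210-3p and miR-21a-5p, a ratio within the arrays, does not move with scalings by a single number per array. It does move with quantile normalization.

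**Figure D5:**
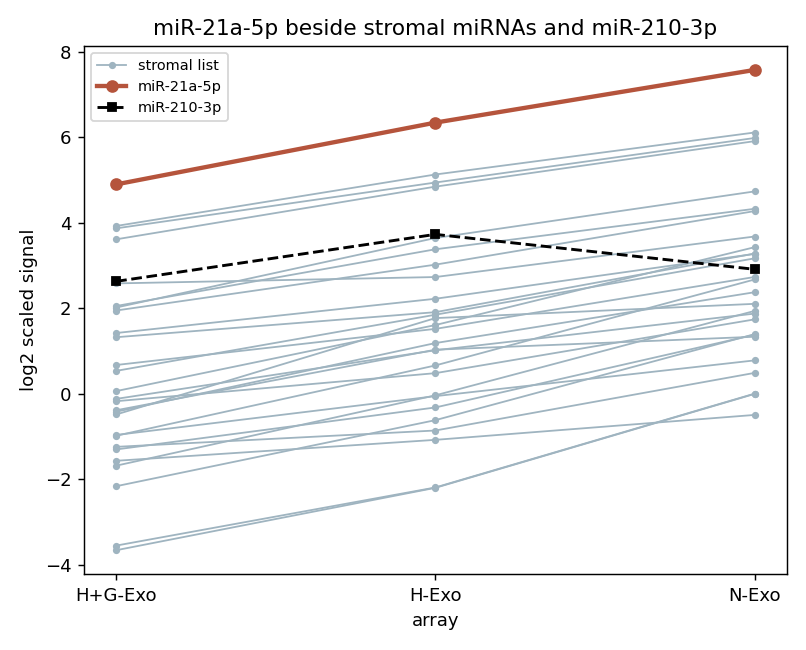
Log2 scaled signal (y axis) of miR-21a-5p, of the stromal miRNAs detected on all 3 arrays and of miR-210-3p, by array; each line is 1 miRNA. miR-21a-5p lies above every stromal line on each array and slopes with them, while miR-210-3p is highest in H-Exo under this scaling. Its log2 difference between H-Exo and N-Exo was near 0 without scaling (-0.01) and with the hybridization spike-ins (-0.02).

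The miRNAs whose profile over the 3 arrays was most like that of miR-21a-5p were found by the smallest distance between log2 profiles, each centred on its own mean, among the 561 others detected on all 3 arrays. miR-10a-5p, encoded in a Hox cluster, came first at a distance of 0.012, with scaled signals of 0.350 ± 0.0224 in H+G-Exo, 0.943 ± 0.0502 in H-Exo and 2.23 ± 0.0909 in N-Exo. miR-350-3p followed at 0.026 and miR-22-3p, abundant in heart and stromal cells, at 0.095. The rest of the nearest 10 were miR-107-3p, miR-362-3p, miR-130a-3p, miR-27a-3p, miR-30a-5p, let-7a-5p and miR-151-5p, the last at 0.135. Likeness over 3 arrays is a description only.

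Of miRNAs known to be induced in inflammation alongside miR-21, the miR-146 pair was lower under hypoxia. Among the 9 measured, 2 were lower in the hypoxia comparison, miR-146a-5p at -2.13 and miR-146b-5p at -1.49, both restrainers of NF-kB signalling, and 0 were higher, against 10.7% of all miRNAs called lower. miR-155-5p, an inflammatory miRNA of immune cells, stood at -0.97 without a call. In the GW4869 comparison 2 of 9 were lower, miR-212-3p at -1.67 and miR-31-5p at -1.14, a share no higher than the 26.1% of all miRNAs. The list's median was -0.49 there but 0.48 at its highest among the alternatives. With both treatments 8 of 9 were lower, against 26.1%, with a median of -1.55. Whether the list differed from miR-21a-5p was not tested.

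Among miRNAs tied to TGF-beta signalling and fibrosis, miRNAs described as promoting it and miRNAs described as restraining it were both among those called lower. In the hypoxia comparison 8 of 11 were lower and 0 higher, with a median of -1.37, against 10.7% of all miRNAs called lower. They included miR-199a-3p at -1.82, described as promoting, and miR-30c-5p at -1.84, described as restraining through connective tissue growth factor. With GW4869, 8 of 11 were lower (0 to 9 over the alternatives), against 26.1% of all miRNAs, with miR-29b-3p, a repressor of collagens, at -1.99. Of 14 measured in the combined comparison 12 were lower, again against 26.1%, with a median of -2.58. The promoting miR-199a-5p stood at -0.98 in the GW4869 comparison and the restraining miR-133a-3p and miR-133b-3p at 0 in the combined one, where both arrays were at the floor, all without a call.

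Of 14 measured miRNAs described in cardiac protection by transferred exosomes, 4 were lower in the hypoxia comparison and 0 higher, with a median of -0.93, against 10.7% of all miRNAs called lower. These were miR-146a-5p, miR-199a-3p, miR-214-3p at -1.37 and miR-22-3p at -1.32. In the GW4869 comparison 8 of 14 were lower (1 to 8 over the alternatives) and in the combined comparison 13 of 14, against 26.1% of all miRNAs in each. Of 12 hypoxia-responsive miRNAs measured, 9 were lower in the hypoxia comparison and 0 higher, 7 of 12 were lower in the GW4869 comparison (0 to 8 over the alternatives) and 11 of 12 in the combined comparison, against 10.7%, 26.1% and 26.1% of all miRNAs. miR-23b-3p, miR-26a-5p and miR-195a-5p, at -1.94, led the list in the hypoxia comparison. Over the alternatives the lower calls of the hypoxia comparison ran from 2 to 8 on the inflammation list, from 4 to 12 on the cardiac list and from 6 to 11 on the hypoxia list.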

How the data were processed

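Per the file headers, the authors used 3 one-colour arrays and Agilent Feature Extraction version 10.7.1.1, and the deposited files hold background-subtracted intensity per spot, not scaled between arrays. The authors' deposited value table was read as log2 values, and how it was normalized is not stated. Groups followed the treatment in the labels.

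Outlier spots were left out, spots averaged per probe, and each array divided by its 75th percentile over probes detected on all 3 arrays. A miRNA took its brightest probe, and scaled signals under 0.0653 were set to that floor ahead of log2. All 1881 miRNAs went through the same steps in Python 3.11.15 with pandas 2.3.3, tested on simulated data, with limma 3.58.1 for the normexp alternative (offset 50). Spike-in scaling used the median of each spike-in probe. Tried alternatives numbered 15, of which the shorter probe alone was chosen after seeing the data. The members, the lists, the 7 marker lists and the naming rule (members, near copies, rank neighbours, nearest 10 profiles, up to 4 members per list, miR-210-3p) were chosen with earlier results of these data known. The arm comparison was left out because miR-21a-3p was never measured on both arrays. The result of 1 further list is not reported here.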

Additional observations from a re-analysis of the deposited data

How the results depend on the processing

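The difference of miR-21a-5p kept its direction under all 15 alternatives in all 3 comparisons. It kept its call in H-Exo against N-Exo (-2.07 to -1.12) and in H+G-Exo against N-Exo (-3.01 to -2.35). Of the 15, for H+G-Exo against H-Exo, 12 kept the call (-1.50 to -0.45), and it was lost without scaling (-0.45), with the labelling spike-ins (-0.58) and with the hybridization spike-ins (-0.61); there each array is no longer set to its own miRNA signal. Counts of called miRNAs ranged over 14 of them from 1 to 50 higher and 42 to 136 lower in H-Exo against N-Exo, from 17 to 185 higher and 7 to 149 lower for H+G-Exo against H-Exo, and from 58 to 197 higher and 98 to 164 lower in H+G-Exo against N-Exo. The share of signal held by miR-21a-5p was 1.07% in H+G-Exo, 2.60% in H-Exo and 6.90% in N-Exo when all probes were summed, 0.968%, 2.11% and 5.91% by the software's totals, and 3.49%, 7.78% and 16.3% among miRNAs numbered below 3000. Its rank was 17 in H+G-Exo, 12 in H-Exo and 3 in N-Exo by the software's totals, and 3 in H+G-Exo and 2 in H-Exo below 3000. miR-21a-3p ranked 553 in N-Exo by the software's totals and 350 below 3000. The cause of these moves was not tested. The difference of miR-21a-3p and the gap between the arms could not be computed under any alternative, since miR-21a-3p was never measured on both arrays. No paired analysis was possible because each group is 1 array, and for the same reason no replicate could be left out. Signal over background limits miR-21a-3p on every array.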
